A study of Mus musculus with 2 samples.

Results

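The respiratory chain is built from 2 genomes, and the transcripts of both were followed here in single cells of mouse fat. Its members were chosen by symbol: every gene whose symbol starts with mt-, Nduf, Uqcr or Atp5, or with Cox4 to Cox8, together with Sdha, Sdhb, Sdhc and Sdhd. This rule found 105 of 27998 genes in the table. They were 13 protein-coding genes of the mitochondrial genome, 82 nuclear genes for subunits of complexes I to V, 8 nuclear assembly factors, Cox7a2l (a supercomplex factor) and Atp5s (coupling factor B). The nuclear subunits fell to complex I (36), complex II (4), complex III (8), complex IV (19) and complex V (15). The mitochondrial genes fell to complex I (7), complex III (1), complex IV (3) and complex V (2), and complex II has none.

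Complexes I and II pass electrons from NADH and succinate to ubiquinone, complex III passes them on to cytochrome c, and complex IV passes them to oxygen. Complexes I, III and IV pump protons across the inner mitochondrial membrane, and complex V, the ATP synthase, makes ATP from the gradient. Mitochondrial DNA is transcribed as long precursors from which the separate messages are cut, whereas each nuclear gene has its own promoter, so the balance of the genomes is set at several levels.

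The study profiled the stromal vascular fraction, the non-adipocyte cells freed by collagenase, of epididymal white adipose tissue. Both groups were wild-type C57BL/6J male mice aged 18 weeks. The NCD group ate normal chow, and the HFD group ate a high fat diet for 12 weeks. Each diet gave 1 library made with a droplet kit that tags the 3′ ends of transcripts, and the labels do not say how many animals entered it. With 1 library per diet, diet and library cannot be told apart and no test was made. All intervals are 95% intervals that cover counting error of unique molecular identifiers (UMIs) only.

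The libraries stood apart in depth and in how far markers of other cell types were counted in a class. The NCD library held 7365 cell barcodes with a median of 4230 UMIs, and the HFD library held 6840 with a median of 2020. After filtering, 7158 and 6444 cells were kept, and 64 barcodes occurred in both libraries. Every cell was therefore thinned to 1400 UMIs, and levels are CPM (counts per 1000000) of the summed thinned UMIs of a class in a library. Cells were clustered without the members and named from marker genes, so that each name means a profile like that class. Enough cells for a comparison (50 in each library) were found for macrophages (2278 NCD and 2212 HFD cells), progenitors (2730 and 3096), dendritic cells (613 and 192), endothelial cells (342 and 156), T cells (157 and 255), B cells (59 and 200) and mesothelial cells (55 and 56). Dendritic cluster c4.1 held 250 of the 613 NCD cells but, before the mitochondrial limit, only 4 HFD cells. Its leading genes included Lyz1, Ear2, Fcrls and Retnla, which also led macrophage cluster c4.0. In macrophages, the 12 progenitor markers stood at a median of 3.28% of their level in the whole NCD library and 35.2% of that in the whole HFD library. In progenitors, the 11 macrophage markers stood at 4.50% and 30.3%. Markers of other cell types were thus counted more in these HFD classes, and unevenly among clusters. HFD B cell clusters c19.1 and c19.2, for example, held progenitor markers at 12.2% and 78.7% of the library level. The source of these counts was not tested, and free RNA is only a name for them below. Their part in the results was not tested beyond 2 alternatives, free RNA subtracted and clusters with little free RNA.

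The sequences at the annotated ends of the mitochondrial genes are shown first, because the results below turn on these genes. UMIs of this assay are counted at the 3′ end, next to the poly(A) tail. Some mitochondrial open reading frames stop on an incomplete codon that the tail completes. In the GENCODE vM21 transcripts (GRCm38), 3 of the 13 genes end on a bare T. Below are the last 30 annotated bases of these 3 and of 3 genes annotated with a complete stop codon. All lie on the plus strand, with the final T or the stop codon in capitals. Whether the messages in these cells end at these bases was not tested.

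mt-Co3, chrM:9361-9390: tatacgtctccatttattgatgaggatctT
mt-Cytb, chrM:15259-15288: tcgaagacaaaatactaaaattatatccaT
mt-Nd4, chrM:11515-11544: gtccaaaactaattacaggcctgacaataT
mt-Co1, chrM:6843-6872: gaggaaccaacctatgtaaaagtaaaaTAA
mt-Co2, chrM:7667-7696: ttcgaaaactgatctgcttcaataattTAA
mt-Nd2, chrM:4922-4951: ctacccctagccccccaactaattaccTAG

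On the nuclear side, RefSeq promoters of build GRCm38.p6 (250 bases before to 50 after each start) were at hand for 73 of the 92 nuclear members, with 78 promoters in all. They were searched on both strands for the letters of 3 factors that are known to act on genes of mitochondrial proteins. The NRF1 letters GCGCA and GCGC, set 1 base apart, stood in 25.6% of the member promoters and in 4.60% of all 32851 promoters. The letters CCGGAAG, bound by ETS factors such as GABP, stood in 21.8% and 8.86%, and the YY1 letters AAGATGGC in 11.5% and 2.75%. At least 1 of the 3 stood in 40 of the 78 member promoters, where a match of one pattern may overlap a match of another. The 75 bases before the start are shown for a complex I and a complex III subunit that hold one, and for a restricted complex IV paralogue that holds none. Capitals mark the match, and each sequence runs along its gene's strand (Ndufa11 plus, Uqcrh and Cox6b2 minus).

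Ndufa11, chr17:56717687-56717761: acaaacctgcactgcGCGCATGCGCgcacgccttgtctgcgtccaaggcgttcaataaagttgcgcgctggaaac
Uqcrh, chr4:116075071-116075145: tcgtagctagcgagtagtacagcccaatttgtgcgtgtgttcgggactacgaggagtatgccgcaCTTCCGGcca
Cox6b2, chr7:4753095-4753169: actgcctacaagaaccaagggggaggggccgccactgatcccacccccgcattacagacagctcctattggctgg

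A match describes these letters and is not a binding site. Ndufa11, an accessory subunit of complex I, was counted in macrophages at 148 (NCD) and 209.9 CPM (HFD) and at 254 and 287 CPM in progenitors. Uqcrh, the hinge protein of complex III, was at 590.1 and 613 CPM in macrophages and at 526 and 577 CPM in progenitors. Cox6b2, known from testis, stayed at or below 39.0 CPM in every class (its values follow with the paralogues). All 3 were chosen for display after their values were seen, and they show no link of match and level. Among abundant members given below, promoters of Ndufa13 and Atp5b lacked a match, and those of Cox8a and Atp5l held the ETS letters.

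In the data as a whole, the mitochondrially encoded UMIs were higher in the HFD library in most cell types, and the nuclear subunits differed less and in both directions. In progenitors, the stromal cells that can form adipocytes, the 13 mitochondrial genes summed to 24295 CPM in the NCD and 42597 CPM in the HFD library, a ratio of 1.75 (interval 1.74 to 1.77). Macrophages had 30902 and 40794 CPM, a ratio of 1.32 (1.31 to 1.33). The direction was the same in endothelial cells with 29379.7 and 46488 CPM (ratio 1.58, 1.54 to 1.62), and in dendritic cells with 20672 and 28854 CPM (1.40, 1.36 to 1.43). T cells had 26779 and 33644 CPM (1.26, 1.22 to 1.30) and mesothelial cells 30909 and 36747 CPM (1.19, 1.13 to 1.26). B cells were the exception, with 44007 and 43096 CPM and an interval that held 1 (0.979, 0.944 to 1.02). The T cell ratio compares unlike clusters. Of 157 NCD T cells, 67 lay in cluster c15.2 (22825 CPM), which had Ccl17, Cd209a and Lyz1 among its leading genes. Of 255 HFD T cells, 171 lay in cluster c15.3 (36040 CPM), where progenitor markers stood at 73.9% of the library level. The T cell cluster shared by both libraries was lower in the HFD library, as given below.

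The nuclear subunits were closer between the libraries. Macrophages had 21391 CPM in the NCD and 24631 CPM in the HFD library, a ratio of 1.15 (1.14 to 1.16). Progenitors had 21332 and 21881 CPM, a ratio of 1.03 with an interval of 1.02 to 1.04. B cells were higher in the HFD library at 19588 and 22032 CPM (1.12, 1.06 to 1.19), but this ratio compares unlike clusters. Of 200 HFD B cells, 135 lay in cluster c19.2 (23111 CPM), where Jchain and Mzb1 led. Its mean log2 marker fold was 3.685 for B cells and 3.578 for plasma cells. The B cell cluster shared by both libraries, c19.1, had 19327 and 19791 CPM, a ratio of 1.02 (0.955 to 1.10). Dendritic cells were lower in the HFD library at 25399.7 and 23761 CPM (0.935, 0.910 to 0.962). Endothelial cells were lower too, at 25038 and 23558 CPM (0.941, 0.910 to 0.972). The shared clusters of these classes did not go that way, as given below. Dendritic cluster c4.1, with 250 of the 613 NCD cells, held 27531 CPM of nuclear subunits. The intervals of T cells (23585 and 24017 CPM, 1.02, 0.984 to 1.05) and of mesothelial cells (25519.5 and 24758 CPM, 0.970, 0.911 to 1.03) held 1.

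**Figure D1:**
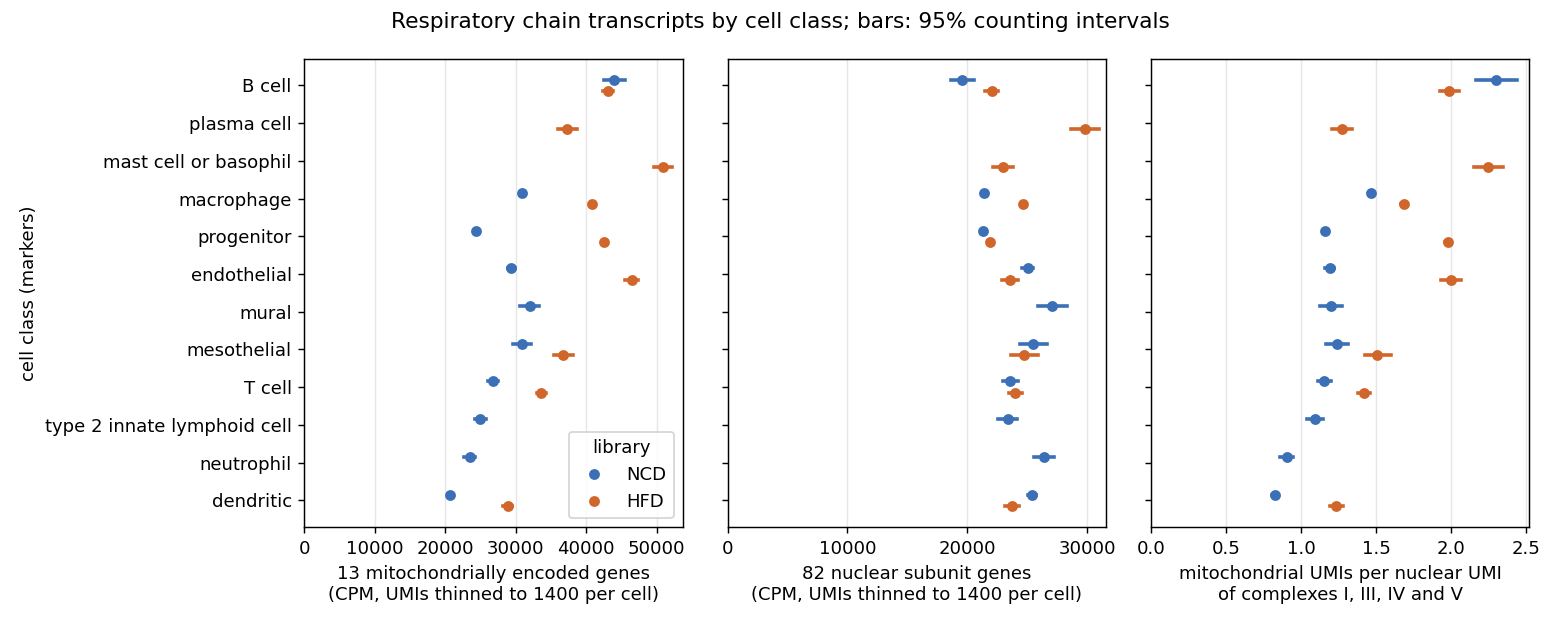
Summed CPM of the 13 mitochondrially encoded genes, summed CPM of the nuclear subunits, and the ratio of mitochondrial to nuclear UMIs of complexes I, III, IV and V, by cell class in the NCD and HFD libraries, with 95% counting intervals and 1 library per diet. Mitochondrial levels were higher in the HFD library in 6 of the 7 classes with at least 50 cells in both libraries, with B cells the exception, whereas nuclear levels stayed between 19588 and 25519.5 CPM in these classes.

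The balance of the genomes followed from both sums. It was taken as mitochondrial over nuclear UMIs of complexes I, III, IV and V, which is a ratio of counted 3′ ends and not of proteins. In progenitors it was 1.16 in the NCD and 1.98 in the HFD library, and in endothelial cells 1.19 and 2.001. Macrophages had 1.47 and 1.68, T cells 1.16 and 1.42, and mesothelial cells 1.24 and 1.51. Dendritic cells had the lowest NCD ratio of the 7 classes, 0.825, and 1.24 in the HFD library. B cells had the highest NCD ratio, 2.30, and 1.99 in the HFD library. Among classes found in 1 library only, mast cells or basophils of the HFD library had a ratio of 2.25 (94 cells), in which the progenitor markers stood at 98.5% of the library level. The plasma cells of the HFD library had 1.27, and the mural cells, neutrophils and type 2 innate lymphoid cells of the NCD library had 1.20, 0.904 and 1.09.

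Cells differed widely within a class, and the difference between the libraries was seen in the typical cell. The median macrophage held 2.86% mitochondrially encoded UMIs in the NCD and 3.50% in the HFD library, and the median progenitor 2.21% and 3.71%. The middle 80% of progenitors ran from 1.43% to 3.58% in the NCD library and from 1.93% to 7.21% in the HFD library, so that the cells overlapped. The median share of nuclear subunits was 2.07% and 2.43% in macrophages and 2.14% and 2.18% in progenitors.

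The order of macrophages and progenitors was not the same in both libraries. In the NCD library, macrophages held 1.27 times the mitochondrial level of progenitors (1.26 to 1.28), and in the HFD library 0.958 times (0.951 to 0.965). The latter ratio turned to a log2 value of 0.08 from -0.06 when cells of any mitochondrial share were kept. For nuclear subunits the ratio was 1.00 (0.993 to 1.01) in the NCD and 1.13 (1.12 to 1.14) in the HFD library. B cells held 1.81 times the mitochondrial level of progenitors in the NCD library and 1.01 times in the HFD library, with 59 B cells behind the former.

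The mitochondrial level went with depth, and the ratio of the libraries varied with the depth window. Thinning sets the same number of UMIs for every cell but does not make a shallow cell resemble a deep one. NCD macrophages of 1400 to 2000 UMIs held 37983 CPM of mitochondrial UMIs, and those of 5000 UMIs or more held 25689.9 CPM. In HFD macrophages the same windows held 41732 and 31459.6 CPM. Within windows, the HFD over NCD ratio of macrophages was 1.10 (1400 to 2000 UMIs), 1.21 (2000 to 3000), 1.41 (3000 to 5000) and 1.22 (5000 or more).

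Progenitors kept a higher HFD level in every window. NCD progenitors held 35186, 29552, 24748 and 20905 CPM from the shallowest to the deepest window. HFD progenitors held 45617, 42687.5, 36718 and 30766 CPM, and the ratios were 1.30, 1.44, 1.48 and 1.47. Dendritic cells, by contrast, had ratios near 1 in the windows, of 1.02, 1.04, 1.18 and 1.06. Endothelial cells kept ratios of 1.49, 1.64 and 1.56 in the windows with enough cells in both libraries. T cells had 1.02 (0.964 to 1.07) at 2000 to 3000 UMIs and 1.35 at 3000 to 5000 (37 and 30 cells), and B cells 0.885 (0.834 to 0.938) at 2000 to 3000 UMIs with 26 and 52 cells. For nuclear subunits, the windows gave ratios of 1.11 to 1.17 in macrophages and of 0.993 to 1.13 in progenitors.

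**Figure D2:**
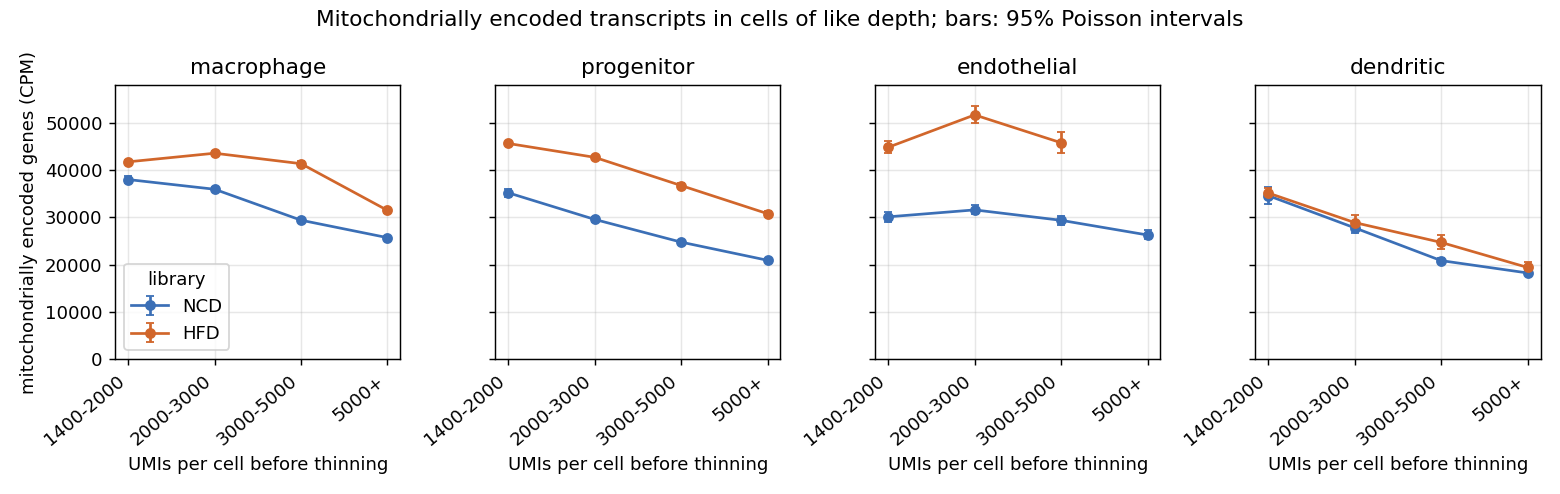
Summed CPM of the mitochondrially encoded genes in windows of UMIs per cell, for 4 cell classes in the NCD and HFD libraries, each cell thinned to 1400 UMIs, with 95% counting intervals. Levels were lower in deeper cells, as with 37983 and 25689.9 CPM in the shallowest and deepest NCD macrophages, and the HFD progenitors lay above the NCD progenitors in all 4 windows.

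Different clusters held most of the macrophages and most of the progenitors in the 2 libraries, so the comparison was repeated within the clusters that both shared. Progenitor cluster c9.1 had a mitochondrial ratio of 1.70 and a nuclear ratio of 0.827. The macrophage clusters c23.1 and c24.2 had mitochondrial ratios of 1.16 and 1.04, the latter with an interval that held 1 (0.963 to 1.13). The dendritic clusters c21.0, c25.0 and c5.0 had 1.25, 1.38 and 1.21, and the endothelial cluster c16.0 had 1.09. The T cell cluster c15.1 was lower in the HFD library at 0.873, and the B cell cluster c19.1 stood at 0.977. The size of the mitochondrial difference therefore varied with the cluster, and each of these shared clusters lay below the ratio of its class. Only for c9.1, c25.0 and c19.1 did the interval of the cluster hold the ratio of the class. For nuclear subunits, the dendritic clusters c21.0, c25.0 and c5.0 had ratios of 1.03, 1.15 and 1.05, and endothelial cluster c16.0 had 1.04. These lay above 1, unlike the nuclear ratios of their classes. Macrophage clusters c23.1 and c24.2 had nuclear ratios of 0.954 and 1.10, T cell cluster c15.1 had 0.999 and B cell cluster c19.1 had 1.02. Of these nuclear intervals, those of c25.0 and c24.2 did not hold 1.

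All 13 mitochondrial genes encode core parts of the chain, and 9 members passed 1.5-fold higher in HFD progenitors, against a background of 9.05% of all 8174 genes with at least 10 CPM in either library. Of the 105 members, 95 had at least 10 CPM in progenitors. The 9 were mt-Nd1, mt-Nd3, mt-Nd4, mt-Cytb, mt-Co2, mt-Co3 and mt-Atp6 together with the nuclear paralogues Cox6b2 and Ndufa4l2. Past 1.5-fold lower in HFD progenitors were 2 members, Ndufs1 and the assembly factor Ndufaf4, against a background of 24.3% of all genes. In macrophages 94 of the 105 members had at least 10 CPM. Of these 6 were past 1.5-fold higher in the HFD library (mt-Co3, mt-Nd1, Ndufa10, Ndufs4, Ndufv1 and Ndufa4l2), against a background of 17.3% of 7605 genes. Past 1.5-fold lower were 2, Cox7a1 and Cox6b2, against a background of 27.5%. The names that the rule for named genes does not give (Ndufa10, Ndufs1, Ndufs4, Ndufaf4) stand here because they were counted.

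Single mitochondrial genes differed in their ratios. Mt-Cytb, the mitochondrial subunit of complex III, stood in progenitors at 2383 (NCD) and 5119 CPM (HFD), a ratio of 2.15 (2.10 to 2.20). In macrophages it stood at 2932 and 4374 CPM (1.49). Mt-Co3, a core subunit of complex IV, stood at 4644 and 9196 CPM in progenitors (1.98) and at 6079 and 9454 CPM in macrophages (1.56). These 2 genes had the largest ratios of the abundant mitochondrial genes in progenitors.

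The ATP synthase subunit mt-Atp6 stood at 5372 and 9501 CPM in progenitors (1.77) and at 6298 and 9076 CPM in macrophages (1.44). The complex I subunits mt-Nd1 and mt-Nd4 behaved alike in size, with mt-Nd1 at 2804 and 4898 CPM in progenitors (1.75) and at 3179 and 4884 CPM in macrophages (1.54). Mt-Nd4 was at 1289 and 2386 CPM in progenitors (1.85) and at 1655 and 2371 CPM in macrophages (1.43). Mt-Nd3 was at 186 and 320.2 CPM (1.72) in progenitors and at 243 and 311 CPM (1.28) in macrophages.

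Mt-Co1, the catalytic subunit of complex IV, differed in direction between the classes. It was higher in HFD progenitors (5096 and 7357 CPM, 1.44), but stood at 7100.5 and 6483 CPM in macrophages (0.913, 0.90 to 0.93). In B cells it was lower in the HFD library too, at 9455 and 7121 CPM. The values were close in mesothelial cells (7649 and 7525.5 CPM) and in T cells (5482 and 5706 CPM), and no direction is read from them. Mt-Co1 was higher in dendritic cells (4614 and 5298 CPM) and endothelial cells (5662 and 7743 CPM). Its macrophage level varied with the cluster. NCD clusters c2.0, c3.0 and c4.0 held 8095, 5885 and 5129 CPM, and HFD clusters c1.0 and c1.1 held 6566 and 6444 CPM. In the shared macrophage clusters it was 4948 and 5879 CPM (c23.1) and 6492 and 5812 CPM (c24.2), so that these went opposite ways. Mt-Co3, in contrast, had a higher value in the HFD library in all 7 classes. The difference was small in B cells (9431 and 9911 CPM) and large in endothelial cells (5165 and 9949.6 CPM).

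Other mitochondrial genes had smaller ratios or were rare. Mt-Co2 of complex IV was at 1634 and 2695 CPM in progenitors (1.65) and at 2349 and 2749 CPM in macrophages (1.17). Mt-Nd2 was at 664 and 822 CPM in progenitors (1.24), where cells of 1500 to 3000 UMIs gave a log2 ratio of -0.0028, and at 834 and 814 CPM in macrophages (0.976, 0.92 to 1.03). Mt-Nd5 was at 128 and 178 CPM in progenitors and at 147 and 159 CPM in macrophages (1.08, 0.95 to 1.22). Few UMIs fell on mt-Nd4l (60.7 and 86.5 CPM in progenitors, with a log2 ratio of -0.034 in cells of 1500 to 3000 UMIs), mt-Atp8 (27.5 and 28.6 CPM) and mt-Nd6 (7.33 and 8.31 CPM). Mt-Nd6 is the only protein-coding gene on the light strand. Mt-Nd4l and mt-Atp8 lie on messages shared with mt-Nd4 and mt-Atp6, so their own counts say little of their transcript.

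Taken as shares of all mitochondrial UMIs, 5 genes (mt-Co1, mt-Co2, mt-Co3, mt-Cytb and mt-Nd4) went the same way in all 7 classes. Others went both ways, such as mt-Atp6 and mt-Nd1, whose shares were higher in the HFD library in 4 classes and lower in 3. The share of mt-Co1 was lower in the HFD library in 7 of 7 classes (log2 change of the share from -0.53 to -0.21), and that of mt-Co2 in 7 of 7 (-0.30 to -0.09). In macrophages mt-Co1 made up 23.0% of the mitochondrial UMIs in the NCD and 15.9% in the HFD library, and in progenitors 21.0% and 17.3%. The share of mt-Nd2 was lower in 6 of 7 classes, with T cells at 0.01.

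Shares that were higher in the HFD library in 7 of 7 classes belonged to mt-Co3 (0.10 to 0.28), mt-Cytb (0.18 to 0.35) and mt-Nd4 (0.04 to 0.37). In macrophages mt-Co3 made up 19.7% in the NCD and 23.2% in the HFD library, and in progenitors 19.1% and 21.6%. These 3 genes are the ones whose sequences above end on a bare T. Of the 10 genes annotated with a complete stop codon, 0 had a higher share in all 7 classes and 2 had a lower share in all 7. Shares of mt-Atp8 and mt-Nd6 could be compared in 5 classes only, and mt-Nd6 was lower in these 5. The 10 genes are not 10 separate message ends, since mt-Atp8 and mt-Nd4l share messages with mt-Atp6 and mt-Nd4. The annotated last base of mt-Atp6, chrM:8607, is also the first base of mt-Co3. The match between the annotated ends and the shares was seen after the values were known, and it is a description. The ratio of mt-Co1 to mt-Co3 UMIs ran from 0.902 to 1.38 over 27 NCD clusters (median 1.07) and from 0.624 to 1.22 over 28 HFD clusters (median 0.786). It was lower in the HFD library in 9 of the 9 clusters shared by both libraries, by unequal amounts. The endothelial cluster c16.0 had 1.07 and 0.6815, the B cell cluster c19.1 had 0.978 and 0.770, the macrophage cluster c23.1 had 0.902 and 0.828, and the progenitor cluster c9.1 had 1.12 and 1.099.

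**Figure D3:**
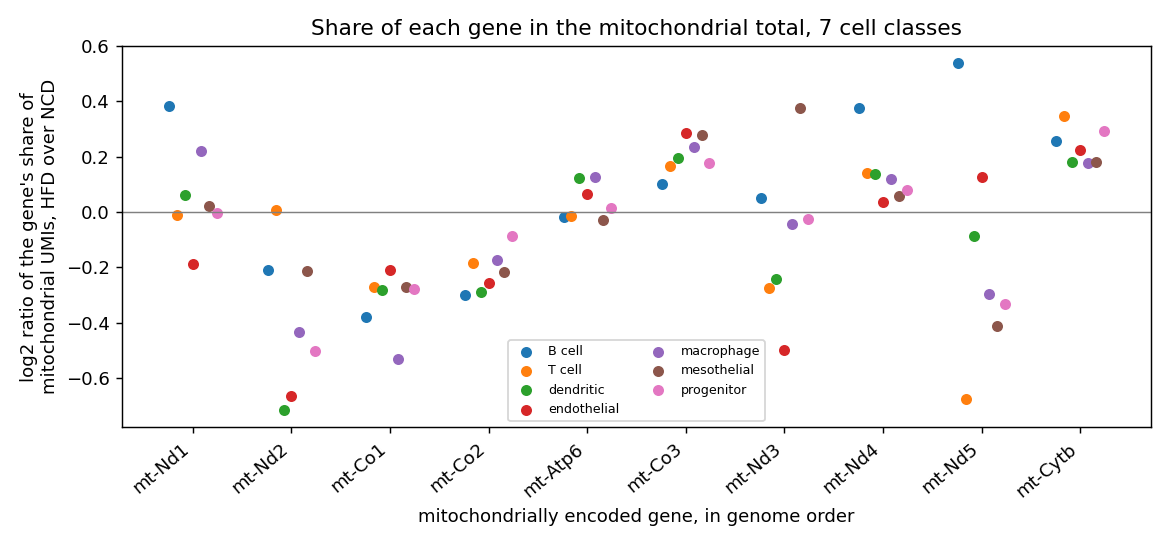
Log2 change, HFD over NCD library, of the share that each of 10 mitochondrially encoded genes takes of all mitochondrial UMIs, 1 point per cell class for 7 classes. Points of mt-Co1 and mt-Co2 all lie below 0, and points of mt-Co3, mt-Cytb and mt-Nd4 all lie above 0.

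The nuclear subunits of the 5 complexes stayed close to each other within a class. In macrophages, the HFD over NCD ratio of the summed nuclear subunits was 1.14 for complex I (6638 and 7551 CPM), 1.11 for complex II (366 and 408 CPM), 1.15 for complex III (2493 and 2859 CPM), 1.17 for complex IV (6399 and 7464 CPM) and 1.16 for complex V (5494 and 6349.8 CPM). In progenitors it was 0.975 for complex I (0.960 to 0.991), 0.932 for complex II (0.866 to 1.00), 1.07 for complex III, 1.08 for complex IV and 1.03 for complex V. Among the mitochondrial parts, complex III stood highest with 1.49 in macrophages and 2.15 in progenitors, and complex IV lowest in macrophages with 1.20. Complex IV also split the genomes in B cells, where its nuclear subunits were at 1.29 (1.16 to 1.44) and its mitochondrial subunits at 0.885 (0.840 to 0.933).

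Of the nuclear subunits with at least 10 CPM, 77 were measured in macrophages, of which 64 lay above a ratio of 1 and 13 below it. Their median log2 ratio was 0.24, beside -0.11 over all genes measured and 0.00 over all genes with at least 50 CPM. In progenitors 76 were measured, 40 above and 36 below, with a median of 0.01 beside -0.26 over all genes and -0.20 over genes with at least 50 CPM. The mitochondrial genes had medians of 0.49 (10 of 12 above 1) in macrophages and 0.75 (12 of 12) in progenitors. The complexes had nuclear medians of 0.21 (I), 0.04 (II), 0.25 (III), 0.24 (IV) and 0.27 (V) in macrophages, and of -0.06, -0.13, 0.06, 0.13 and 0.00 in progenitors.

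**Figure D4:**
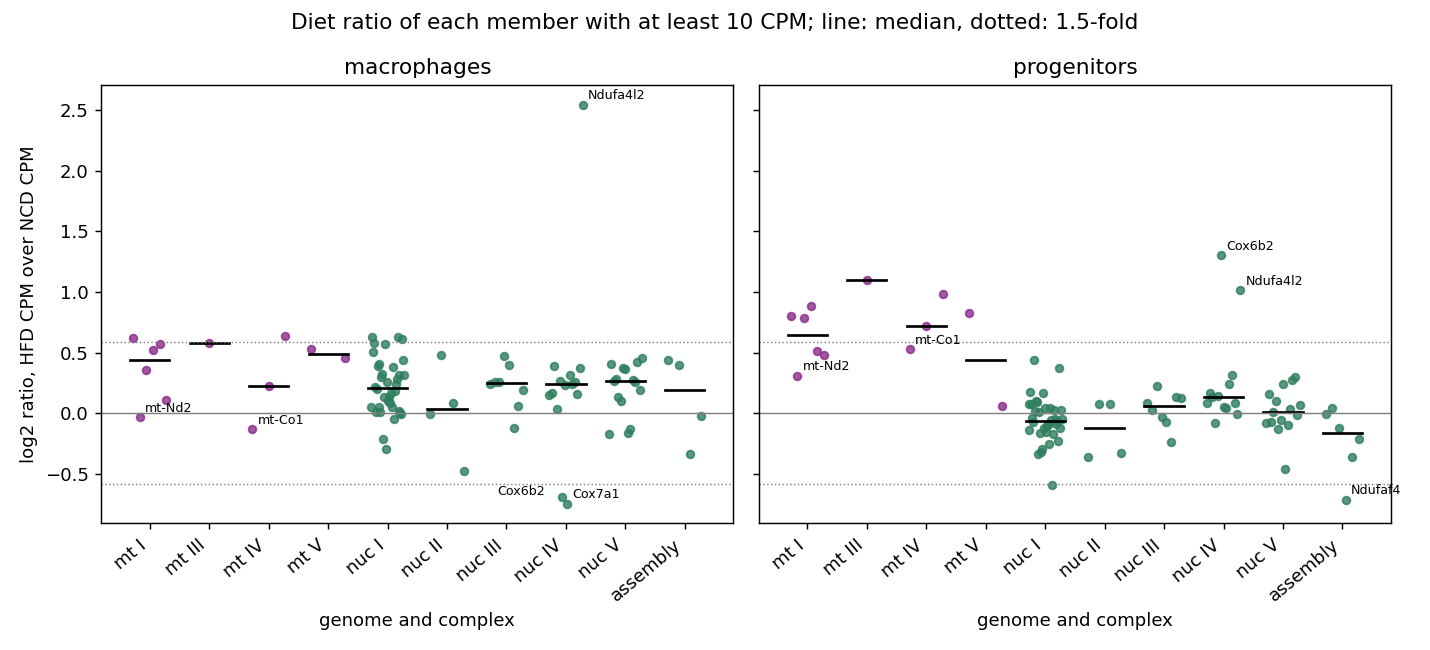
Log2 ratio of HFD over NCD CPM for each member with at least 10 CPM in either library, by genome and complex, in macrophages and in progenitors, 1 point per gene. The mitochondrially encoded genes have medians of 0.49 in macrophages and 0.75 in progenitors, and the nuclear subunits have medians of 0.24 in macrophages and 0.01 in progenitors.

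Among nuclear complex I subunits, the most abundant were Ndufa13 and Ndufa2, both accessory subunits. Ndufa13 stood at 446 and 519 CPM in NCD and HFD macrophages and at 522.5 and 509 CPM in progenitors. Ndufa2 stood at 520.2 and 524 CPM in macrophages and at 506 and 481 CPM in progenitors. Ndufv1, which binds the NADH and flavin of the complex, was at 37.6 and 57.5 CPM in macrophages (1.53, 1.21 to 1.94) and at 67.8 and 62.3 CPM in progenitors.

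Several accessory subunits were lower in the HFD library. Ndufb10 was at 252 and 217 CPM in macrophages (0.86) and at 278 and 223 CPM in progenitors (0.80). Ndufb3 was at 153 and 125 CPM in macrophages (0.82, 0.71 to 0.94) and Ndufb11 at 297 and 243 CPM in progenitors (0.82). Ndufab1, the mitochondrial acyl carrier protein, was at 111 and 139.5 CPM in macrophages (1.25). In progenitors it was at 159 and 142 CPM (0.89), but at a log2 ratio of 0.0295 in cells of 1500 to 3000 UMIs, so that it did not keep its direction there.

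Ndufa8 is an accessory subunit of complex I (chr2:36036326-36049406, minus strand), and in both libraries it was higher in endothelial cells than in progenitors. Endothelial cells held 434 (NCD) and 403 CPM (HFD), against 173 and 137 CPM in progenitors. The ratio of endothelial cells to progenitors was 2.51 (2.14 to 2.94) in the NCD and 2.94 (2.32 to 3.68) in the HFD library. Mural cells, which surround small vessels, had 322 CPM in the NCD library. Their cluster had a mean log2 marker fold of 6.504 for mural and 4.797 for endothelial markers. Timp4 and Rbp7 were among its leading genes, as in endothelial cluster c16.0. The part of endothelial RNA in the mural values here and below was not tested. Ndufc2, also of complex I and singled out after its values were seen, had 512 and 389 CPM in endothelial cells, at ratios of 2.68 and 2.11 to progenitors. Both genes were uneven among endothelial cells. In the shared cluster c16.0 Ndufa8 was at 519 and 510.2 CPM and Ndufc2 at 615 and 791 CPM (28 cells in the HFD library). In NCD cluster c16.3 both were at 267 CPM, and in HFD cluster c16.4 Ndufa8 was at 299.5 and Ndufc2 at 269 CPM. Of the 74 nuclear members measured, 3 (Cox5a, Ndufa8 and Ndufc2) were past 1.5-fold higher in endothelial cells than in progenitors in both libraries, against a background of 20.7% of all 3957 genes counted in all 4 sums with at least 50 CPM in 1 of them. Past 1.5-fold lower was 1 (Ndufa4l2), against 16.5%.

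Complex II, succinate dehydrogenase, is wholly nuclear, and its 4 subunits differed in direction. Sdhb, the iron-sulfur subunit (chr4:140961203-140979193, plus strand), was at 145 and 203 CPM in macrophages (1.40, 1.24 to 1.58) and at 139.7 and 147 CPM in progenitors. Sdhd, a membrane anchor (chr9:50596357-50603812, minus strand), was at 71.2 and 51.0 CPM in macrophages (0.72, 0.58 to 0.88). In progenitors Sdhd was at 63.6 and 50.8 CPM (0.80), but in cells of 1500 to 3000 UMIs its log2 ratio there was 0.23. Sdha, the flavin subunit, was at 80.9 and 80.4 CPM in macrophages and at 101 and 78.9 CPM in progenitors (0.78). Sdhc, the other anchor, was at 68.7 and 72.7 CPM in macrophages and at 59.4 and 62.8 CPM in progenitors.

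In complex III, Uqcrh and Uqcr11 were the most abundant nuclear subunits, and Uqcr11 was at 462 and 553 CPM in macrophages (1.20) and at 412 and 419 CPM in progenitors. The core protein Uqcrc2 was at 58.9 and 77.5 CPM in macrophages (1.31) and at 78.5 and 74.8 CPM in progenitors. Uqcrfs1, the Rieske iron-sulfur protein (chr13:30540308-30545362, minus strand), was higher in dendritic cells than in progenitors in both libraries. It stood at 252 and 193 CPM there, 2.32 and 2.10 times the progenitor level. Dendritic cells also held more Ndufa6 of complex I, at 574 and 569 CPM, 2.02 and 1.87 times progenitors. The part of cluster c4.1, found almost only in the NCD library, in these dendritic values was not tested.

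In complex IV, Cox4i1 and Cox8a, both subunits found in most tissues, were the most abundant nuclear members. Cox4i1 (chr8:120668222-120674207, plus strand) was at 1091 and 1213 CPM in macrophages and at 924 and 978 CPM in progenitors. Cox8a was at 771 and 862 CPM in macrophages and at 653 and 691 CPM in progenitors. Cox5a (chr9:57521274-57532426, plus strand) was low in progenitors, with 177 and 199 CPM, and higher in the other classes given here. Macrophages held 343 and 386 CPM, 1.94 times progenitors in both libraries. The ratio was 2.43 and 1.89 in dendritic cells, 2.54 and 1.58 in T cells, and 2.27 and 1.64 in endothelial cells, and NCD neutrophils held 518 CPM. Among NCD dendritic cells, cluster c4.1 held 540 CPM of Cox5a and cluster c5.0 held 319.5 CPM.

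In complex V, Atp5l and Atp5e were the most abundant subunits, with Atp5l at 791 and 903 CPM in macrophages and at 764 and 756 CPM in progenitors. Atp5e was at 626 and 685 CPM in macrophages and at 557 and 599 CPM in progenitors. The catalytic subunits Atp5a1 and Atp5b went opposite ways in macrophages. Atp5b (chr10:128083273-128090391, plus strand) was at 313 and 415 CPM (1.32), and Atp5a1 at 255 and 226 CPM (0.89). In progenitors Atp5b was at 377 and 419 CPM with thinned UMIs, with a log2 ratio of -0.02 unthinned, so that it gave no direction there.

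The 3 genes for subunit c, the membrane ring of the ATP synthase, encode the same mature protein. Atp5g3 was at 214 and 155 CPM in progenitors (0.73, 0.65 to 0.80) and at 203 and 182 CPM in macrophages. Mural cells held 490.2 CPM of Atp5g3 and 812 CPM of Atp5b, and endothelial cells held 572 and 549 CPM of Atp5b. B and T cells held more of Atp5g2 than progenitors, with 508 and 436 CPM in B cells and 441 and 437 CPM in T cells.

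The order of classes for nuclear members was kept between the libraries in part. Of the 74 nuclear members measured, 1 (Cox5a) was past 1.5-fold higher in macrophages than in progenitors in both libraries, against a background of 15.5% of 3566 genes counted in all 4 sums with at least 50 CPM in 1 of them. Past 1.5-fold lower was 1 as well (Ndufa4l2), against 26.3%. Spearman's rho of the macrophage over progenitor ratios between the libraries was 0.77 across members, and it was 0.75 for dendritic, 0.69 for endothelial, 0.68 for T, 0.37 for B and 0.15 for mesothelial cells. The members share libraries, free RNA and the progenitor level, and the mesothelial cells are few.

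Several subunits of complex IV have paralogues restricted to certain tissues, and a pair of them stood highest in mural cells. Ndufa4l2 (chr10:127514967-127517154, plus strand), a relative of Ndufa4 known from hypoxia and from pericytes, stood at 1190.5 CPM in NCD mural cells (85 UMIs, 951 to 1472). Cox4i2 (chr2:152754173-152765037, plus strand), the oxygen-sensitive isoform of Cox4i1, stood at 700.3 CPM (50 UMIs, 520 to 923). Before thinning, 88.2% of mural cells held a UMI of Ndufa4l2 and 70.6% one of Cox4i2. Both genes are known mural markers and were left out when cells were named. Their partners were at 966 CPM (Cox4i1) and 252 CPM (Ndufa4, 18 UMIs, 149 to 398) in the same cells. In the other classes Cox4i2 did not pass 9.10 CPM.

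Ndufa4l2 was also counted in progenitors, at 38.7 CPM in the NCD and 78.2 CPM in the HFD library, a ratio of 2.02 (1.66 to 2.47). In cells of 1500 to 3000 UMIs its log2 ratio there was 1.93, against 1.01 as reported. It was uneven among progenitors, with 148 CPM in NCD cluster c12.1 and 111 CPM in HFD cluster c7.1, but 2.02 CPM in NCD cluster c17.0. The share of progenitors with a UMI before thinning was 13.1% and 15.1%. In macrophages it stood at 1.88 and 10.98 CPM (6 and 34 UMIs), a ratio of 5.84 (2.42 to 17.0), while the progenitor markers there stood at 3.28% and 35.2% of the library level. Its log2 ratio in macrophages was 1.10 in clusters with little free RNA and 3.79 in cells of 1500 to 3000 UMIs, against 2.54 as reported, and none could be given with free RNA subtracted. Endothelial cells had 18.8 and 41.2 CPM. Its partner Ndufa4 was at 428 and 553 CPM in macrophages (1.29) and at 474 and 471 CPM in progenitors.

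Cox6b2, the paralogue of Cox6b1, was at 39.0 and 38.3 CPM in mesothelial cells (3 UMIs in each library), where 30.9% and 8.93% of cells held a UMI before thinning at their unequal depths. It was at 31.5 and 3.72 CPM in dendritic cells, at 10.97 and 6.78 CPM in macrophages and at 5.23 and 12.9 CPM in progenitors. In cells of 1500 to 3000 UMIs its log2 ratio was -0.0429 in macrophages and 0.49 in progenitors, against -0.69 and 1.30 as reported. Its partner Cox6b1 was at 670.4 and 808 CPM in macrophages and at 537 and 591 CPM in progenitors.

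The muscle and brown fat isoforms were thinly counted. Cox7a1 was at 17.9 and 10.7 CPM in macrophages (57 and 33 UMIs) and at 2.09 and 2.77 CPM in progenitors, beside 387 and 481 CPM of Cox7a2 in macrophages and 384 and 396 CPM in progenitors. Cox7a2l was at 391 and 414 CPM in macrophages and at 344 and 366 CPM in progenitors. Cox6a2 was at 1.57 and 4.84 CPM in macrophages, beside 600 and 615 CPM of Cox6a1. Cox8b had 15 and 43 UMIs in the whole libraries, and Cox7b2 and Cox8c had 0 in both. Cox7b, the common partner of Cox7b2, was at 272 and 321 CPM in macrophages and at 266 and 314 CPM in progenitors. Brown fat isoforms were thus hardly counted in these cells.

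**Figure D5:**
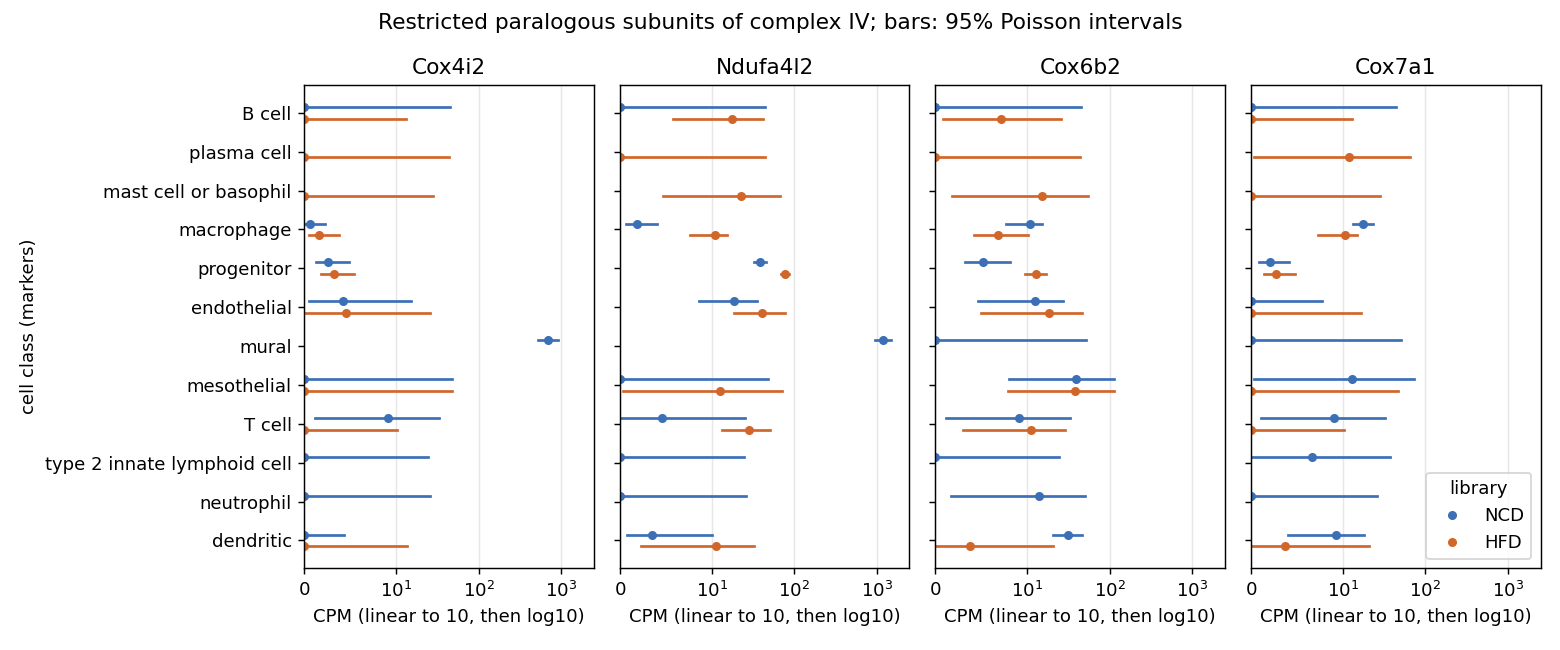
CPM of the restricted paralogues Cox4i2, Ndufa4l2, Cox6b2 and Cox7a1 by cell class in the NCD and HFD libraries, with 95% counting intervals on an axis that is linear near 0 and logarithmic above. Mural cells, shown for the NCD library only (51 cells, and 1 in the HFD library), stand highest for Ndufa4l2 (1190.5 CPM) and Cox4i2 (700.3 CPM).

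Assembly factors were thinly counted, each under 50 CPM in both classes. Their sum in progenitors was lower in the HFD library, at 0.886 of the NCD level (0.795 to 0.987). Ndufaf4, which helps to build complex I, was at 42.4 and 25.8 CPM there (0.61, 0.47 to 0.78) and at 27.0 and 21.3 CPM in macrophages.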

How the data were processed

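The deposited tables give whole-number UMI counts for each gene in each called cell (at least 1556 UMIs in the NCD and 1401 in the HFD library). Per the submitters' processing notes, Cell Ranger, Seurat and build mm10 were used, with no version given. The labels' protocols give a 3′ version 3 droplet kit. Counts of 3′ ends were not divided by gene length.

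The members, gene lists, markers and alternatives were chosen with earlier results of these data known. Cells with at least 500 genes, 1000 UMIs and at most 20% mitochondrial UMIs were kept, the last applied after clustering. Doublets were called with Scrublet in scanpy at an expected rate of 5%. Its own threshold called 187 NCD barcodes and 0 HFD barcodes, so in the HFD library the top 5% by score (342) were removed. Both libraries were clustered together without integration and without the members. The steps used 2000 variable genes, 30 principal components, 15 neighbours and Leiden resolution 1, and clusters of at least 40 cells were split once more at 0.3, which gave 67 clusters. A cluster took the name of the class with the highest mean marker fold if at least 3 markers reached 1.5-fold and no other class had more markers among its 10 leading genes, and 5 stayed unnamed. The base of these folds and a minimum of 10% haemoglobin for erythrocytes were set after the data were seen. Class names thus come from rebuilt clusters and not from the study.

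Every cell was thinned once to 1400 UMIs, and 1.5-fold marks a gene as higher or lower among genes with at least 10 CPM in either library. Sums have exact Poisson and ratios exact conditional binomial intervals. Genes were named by rule: all mitochondrial and Sdh genes, restricted paralogues with their partners, in each other complex the 2 most abundant and the 2 most uneven nuclear subunits over classes, and in each of macrophages and progenitors the 5 furthest members each way with at least 50 CPM. No assembly factor reached 50 CPM in macrophages or progenitors. Each pathway list gives up to 3 names, those with the furthest ratios from 50 CPM upward. Coordinates come from GENCODE vM21 (GRCm38). On simulated counts for the macrophage comparison (6857 genes, 200 changed), the 95% interval held the true ratio for 95.8% of genes, and 73.1%, 98.5% and 98.5% of genes changed by 1.5, 2 and 4 times had an interval beyond 1. Both simulated sums were drawn from the pooled NCD macrophage profile with counting error only. Spread between cells, clusters or libraries and free RNA were not simulated, so the check says nothing of them. The alternatives were unthinned UMIs, cells of 1500 to 3000 UMIs, other mitochondrial limits (10% and none), another denominator, free RNA subtracted, clusters in which other markers stay at or below 25% of the library level, cells classed by their own marker score, and other minimum CPM (50 and none). Clustering used scanpy 1.11.5 (with igraph 0.11.9, anndata 0.12.19 and scikit-learn 1.9.0), figures matplotlib 3.10.9, and the rest Python 3.11.15 with scipy 1.17.1, numpy 2.4.6 and pandas 2.3.3.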

Additional observations from a re-analysis of the deposited data

Results flagged for a closer look

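Mt-Co1, the catalytic subunit of complex IV, stood on opposite sides in the 2 largest classes, with a log2 ratio of HFD over NCD of -0.13 in macrophages and 0.53 in progenitors. Ndufab1, the mitochondrial acyl carrier protein, did so as well, with 0.33 in macrophages and -0.16 in progenitors, but its progenitor value was 0.0295 in cells of 1500 to 3000 UMIs, on the same side as macrophages. The direction of mt-Co1 in macrophages varied with the cluster. Shared cluster c23.1 was higher in the HFD library (4948 and 5879 CPM) and shared cluster c24.2 was lower (6492 and 5812 CPM). The summed nuclear subunits were higher in the HFD library in B cells (0.17), macrophages (0.20) and progenitors (0.04) and lower in dendritic cells (-0.10) and endothelial cells (-0.09). Within shared clusters these directions were not all kept. As ratios, dendritic clusters c21.0, c5.0 and c25.0 had 1.03, 1.05 and 1.15, and endothelial cluster c16.0 had 1.04. Progenitor cluster c9.1 had 0.827, macrophage clusters c23.1 and c24.2 had 0.954 and 1.10, and B cell cluster c19.1 had 1.02. These differences between classes were not tested, since each diet has 1 library, and the intervals behind them cover counting error only.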

How the results depend on the processing

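Values here are log2 ratios or counts of members past 1.5-fold, and the cause of a shift was not tested. No paired analysis was possible because each diet has 1 library, and for the same reason no replicate could be left out. Of the summed ratios whose interval did not hold 0, 1 turned its direction: the mitochondrial ratio of macrophages over progenitors in the HFD library, -0.06 as reported, was 0.0845 with no mitochondrial limit. It was -0.0825 at a limit of 10%, -0.0937 with free RNA subtracted and -0.0095 with cells classed by their own marker score. The mitochondrial HFD over NCD ratio (0.40 in macrophages, 0.81 in progenitors) was 0.21 and 0.51 in cells of 1500 to 3000 UMIs, 0.29 and 0.72 at a limit of 10%, 0.43 and 0.85 with members and ribosomal proteins left out of the denominator, and 0.38 and 0.84 with free RNA subtracted. In macrophages it was 0.55 with no limit and 0.43 by own marker score. The nuclear ratio of macrophages (0.20) was 0.19 with no limit, 0.24 with the other denominator, 0.25 with free RNA subtracted and 0.22 in clusters with little free RNA. That of progenitors (0.04) was 0.0126 unthinned, 0.13 at 1500 to 3000 UMIs, 0.072 with the other denominator, 0.0014 with free RNA subtracted, 0.0129 with little free RNA and 0.0225 by own marker score. Macrophages over progenitors in the NCD library gave a mitochondrial ratio (0.35) of 0.23 at 1500 to 3000 UMIs, 0.36 with free RNA subtracted and 0.37 by own marker score, and a nuclear ratio (0.0040, with an interval that held 0) of 0.0901 at 1500 to 3000 UMIs, -0.0093 unthinned and -0.027 by own marker score. Single genes that turned in progenitors included Ndufab1, mt-Nd2, mt-Nd4l and Sdhd at 1500 to 3000 UMIs and Atp5b unthinned. Others turned too, such as Uqcrc2 (-0.07 as reported, 0.55 at 1500 to 3000 UMIs), mt-Atp8 (0.06, -0.42), Ndufv1 (-0.12, 0.06) and Cox4i1 (0.08, -0.02). Sdhb (0.07, -0.10) and Sdhc (0.08, -0.18) turned unthinned. Further members turned in either class and are not listed. For macrophages over progenitors in the HFD library, the nuclear ratio (0.17) was 0.20 unthinned, 0.16 with no limit, 0.25 with free RNA subtracted and 0.21 with little free RNA. Members higher in HFD macrophages (6) numbered 11 at 1500 to 3000 UMIs, 10 with no limit, 12 with the other denominator and 10 with no minimum CPM. Members lower there (2) numbered 1 unthinned, at 1500 to 3000 UMIs, with free RNA subtracted and by own marker score, and 0 at 50 CPM or more. Members lower in HFD progenitors (2) numbered 1 unthinned, at 1500 to 3000 UMIs, at a limit of 10%, with the other denominator, with little free RNA and by own marker score, and 0 at 50 CPM or more. Depth limits genes of few UMIs, such as the restricted paralogues and the assembly factors.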

Other observations

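Other genes of the pathway, from lists outside the symbols above, were read by the same rule of 1.5-fold and at least 10 CPM. Over all genes, 17.3% were higher and 27.5% lower in HFD macrophages, and 9.05% higher and 24.3% lower in HFD progenitors, and a list near these shares does not stand apart. In macrophages, 4 of 20 genes for mitochondrial import and carriers were higher in the HFD library, a share near that of all genes, and 0 were lower, with a median log2 ratio of 0.31. Among them were Timm8b (72.4 and 129 CPM, ratio 1.78), the ADP/ATP carrier Slc25a4 (132 and 224 CPM, 1.70) and the outer membrane channel Vdac1 (56.1 and 90.7 CPM, 1.62). Further genes for chain parts and assembly had 3 of 28 higher and 0 lower (median 0.23), among them Usmg5, a small ATP synthase subunit (262 and 416 CPM, 1.58). The mitochondrial ribosome had 6 of 74 higher and 1 lower, so that both lists held a smaller share of higher genes than all genes, and the citric acid cycle had 2 of 13 higher (Mdh2 at 106 and 160 CPM) and 2 lower (Fh1 at 54.6 and 32.6 CPM). Glycolysis was the list with the highest median there, 0.68, with 10 of 15 higher and 0 lower: Aldoa stood at 197 and 582.5 CPM (2.96), Pkm at 157 and 446 CPM (2.84) and Ldha at 197 and 369 CPM (1.87). Immediate early genes had 0 of 14 higher and 7 lower (median -0.60), with Egr1 at 1653 and 370 CPM.

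In progenitors the same lists stood near or below 0 beside a median of -0.26 over all genes. Import had 0 of 20 higher and 1 lower, the mitochondrial ribosome 0 of 75 higher and 3 lower, and glycolysis 1 of 13 higher and 1 lower. Regulators of mitochondrial genes had 0 of 9 higher and 5 lower (median -0.60), with Yy1 at 76.9 and 45.0 CPM. The uncoupling protein Ucp2 was the exception, with 20.7 (NCD) and 147 CPM (HFD) and a ratio of 7.11 (5.62 to 9.10), beside 763 and 671 CPM in macrophages. The inhibitor of the ATP synthase Atpif1 was higher in both classes, at 537 and 767 CPM in macrophages (1.43) and at 319.5 and 460 CPM in progenitors (1.44). The macrophage markers in progenitors stood at 4.50% of the library level in the NCD and 30.3% in the HFD library, and their part in the Ucp2 value was not tested.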
